A study of Mus musculus with 4 samples.

Results

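The mitochondrial genome of the mouse carries 22 tRNA genes, and 8 of them are read from the light-strand promoter. These are mt-Tq, mt-Ta, mt-Tn, mt-Tc, mt-Ty, mt-Ts1, mt-Te and mt-Tp, the tRNAs for glutamine, alanine, asparagine, cysteine, tyrosine, serine, glutamate and proline. They were chosen as the tRNA genes of the mitochondrial chromosome with a minus sign in the strand column of the deposited table, which lists 15746 genes, 37 of them on this chromosome. Wild-type (WT) adult mouse hearts had been split into a mitochondrial and a rest fraction, each sequenced in 2 libraries, and the members were measured in all 4. The rest fraction was the low-speed pellet of the homogenate, and the mitochondrial fraction was pelleted from its supernatant and, per the methods, treated with digitonin and RNase A. This treatment and an adjusted fragmentation time are described for the mitochondrial samples only, so that they cannot be told apart from the fraction. The number of animals per library, their strain and their exact age are not given in the sources used here, so that p-values measure the spread between these libraries, which may be technical.

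Both strands of the mitochondrial genome are transcribed into long precursors. The light-strand precursor starts in the control region beside mt-Tp and runs through mt-Te, mt-Ts1, the cluster of mt-Ty, mt-Tc, mt-Tn and mt-Ta, and mt-Tq, and it holds a single mRNA, mt-Nd6, which encodes a subunit of complex I. In the tRNA punctuation model the tRNAs are cut out at their ends by the mitochondrial RNase P and by ELAC2, receive CCA from TRNT1 and are charged by mitochondrial aminoacyl-tRNA synthetases for the translation of the respiratory chain subunits. The cysteine and asparagine tRNA genes flank the origin of light-strand replication.

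The 8 RNAs are shown because their shortness and their packing on the chromosome bear on every value that follows. They are given 5′ to 3′ as DNA letters from the GENCODE M21 transcripts of GRCm38, all on the minus strand, with the anticodon in capitals. A script placed each anticodon in a loop of 7 bases closed by a stem of 5 paired bases.
mt-Tp (UGG, chrM:15356-15422): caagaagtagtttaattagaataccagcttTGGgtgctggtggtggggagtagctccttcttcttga
mt-Te (UUC, chrM:14071-14139): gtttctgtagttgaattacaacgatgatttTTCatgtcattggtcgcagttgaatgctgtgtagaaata
mt-Ts1 (UGA, chrM:6870-6938): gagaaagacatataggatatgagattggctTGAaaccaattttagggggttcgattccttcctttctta
mt-Ty (GUA, chrM:5260-5326): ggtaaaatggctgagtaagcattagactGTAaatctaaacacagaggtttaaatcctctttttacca
mt-Tc (GCA, chrM:5192-5257): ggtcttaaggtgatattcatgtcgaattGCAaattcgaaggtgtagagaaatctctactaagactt
mt-Tn (GUU, chrM:5089-5159): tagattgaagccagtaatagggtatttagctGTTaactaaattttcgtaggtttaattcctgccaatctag
mt-Ta (UGC, chrM:5018-5086): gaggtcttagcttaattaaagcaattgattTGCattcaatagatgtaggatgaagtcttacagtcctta
mt-Tq (UUG, chrM:3772-3842): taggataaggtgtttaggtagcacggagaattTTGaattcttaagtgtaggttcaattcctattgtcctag

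The members were 66 to 71 bases long. Their RNAs held more G and less A than those of the heavy strand. G made up 17.9% to 29.9% of the 8 sequences, with a median of 23.0%, against a median of 15.7% and a range of 7.14% to 21.3% in the 14 heavy-strand tRNAs. The medians for A were 29.3% and 37.3%. mt-Tp, with 29.9%, was the richest in G. These are properties of the genes and not of the libraries.

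The reads were 75 bases long, longer than each of the members, and the authors left out reads overlapping more than 1 gene. The genes around the members therefore set which reads could be counted. mt-Tq shares its last 3 bases with mt-Ti and mt-Ts1 its last 3 with mt-Co1, both on the other strand. mt-Te abuts mt-Nd6, and the gaps between mt-Ta and mt-Tn and between mt-Tc and mt-Ty are 2 bases each. Only mt-Tn and mt-Tc, separated by 32 bases, and mt-Tp, which borders the control region, have more room. A 75-base read that overlaps the member and no other gene of either strand could start at 67 positions for mt-Tp, 31 for mt-Tn and 26 for mt-Tc, and at 0 positions for the other 5. Considering genes of the same strand only, the positions were 141 for mt-Tp, 145 for mt-Tq, 143 for mt-Ts1, 71 for mt-Ta, 69 for mt-Ty and mt-Te, 31 for mt-Tn and 26 for mt-Tc. The kit keeps the strand, but the sources do not state whether it was used in counting, and without it reads of the opposite strand cannot be told apart from those of the tRNA. Among the annotated transcripts, a retained intron of the nuclear gene Cep295 matched mt-Ta, mt-Tn, mt-Tc and mt-Ty with 84.1% to 91.5% identity. Cep295 had 209 and 82 normalized counts in the mitochondrial and 77 and 90 in the rest libraries, and the part of such copies in the members' values was not tested.

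The values are normalized counts, that is, reads per gene divided by a size factor of the library and rounded by the authors. From the spacing of the values, the worth of 1 read was 3.87 normalized counts in mitochondrial replicate 1, 2.55 in replicate 2, and 0.264 and 0.365 in rest replicates 1 and 2. About 47340914, 32116264, 26326343 and 23492045 reads on genes lay behind these libraries. At a level of 3 reads, a gene would have 0.793 to 11.6 normalized counts, depending on the library. Such limits and the Wilson intervals given below cover counting error only. The intervals of log2 fold changes come from limma and cover the spread between libraries. The mitochondrial libraries differed from each other: the mitochondrial rRNAs took 94.5% of the normalized counts in replicate 1 and 82.5% in replicate 2, against 52.6% and 58.4% in the rest libraries. The rest fraction was not free of mitochondria, since 63.2% and 67.5% of its normalized counts came from the mitochondrial chromosome. The 7 cardiomyocyte markers were present in all libraries, with summed levels of 205978 to 278797 in the mitochondrial and 207961 to 236604 in the rest fraction. Summed markers of blood (50 to 323 against 412 to 781) and endothelium (1451 to 1662 against 2682 to 2954) were lower in the mitochondrial fraction, and those of fibroblasts (2838 to 6755 against 1798 to 2580) and macrophages (294 to 496 against 184 to 266) were higher. No list had a marker past limma's adjusted p-value of 0.05 (0 in each), against 2.16% of the 12150 genes tested higher and 1.39% lower. Without adjustment, 5 cardiomyocyte, 1 fibroblast and 2 macrophage markers were higher with p under 0.05, and 1 cardiomyocyte and 4 endothelial markers were lower. Of all genes tested, 14.1% were higher and 16.2% lower in this way. Their part in the members' values was not tested.

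The proline tRNA was the most abundant member in each library. mt-Tp, which reads proline codons, reached 54129 normalized counts in mitochondrial replicate 1 and 13168 in replicate 2, against 531 and 1670 in rest replicates 1 and 2. Its share of the summed light-strand tRNA was 75.7% and 62.1% in mitochondria (with 95% Wilson intervals of 75% to 76.3% and 61.1% to 63.2%). The share was 49.3% and 70.3% in the rest fraction (47.8% to 50.8% and 69.2% to 71.4%). Per base, mt-Tp had 808 and 197 normalized counts in mitochondrial replicates 1 and 2, above and below the 440 and 473 of mt-Nd6 on the same precursor. In the rest fraction it had 7.93 and 24.9 per base, below the 42.4 and 43.2 of mt-Nd6. Its heavy-strand neighbour mt-Tt, the threonine tRNA gene that abuts it, was 22.1 to 87.2 times lower per base in the 4 libraries. Counts per base, here and below, do not correct for the room for reads. With genes of both strands considered, a 75-base read had 67 start positions for mt-Tp and 0 for mt-Tt.

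mt-Tc, the cysteine tRNA, reached 7417 and 4030 normalized counts in mitochondria against 260 and 93 in the rest fraction. The fractions did not overlap, and its replicates in mitochondria lay closer together than those of most other members. mt-Te, the glutamate tRNA, had 1499 and 2699 normalized counts in mitochondria and 66 and 231 in the rest fraction. It was the only member with more normalized counts in mitochondrial replicate 2 than in replicate 1. Counts of mt-Te lay far below those of the mRNA it adjoins: mt-Nd6 was 12.1 to 44.4 times higher per base. The part of the room for reads in this difference was not tested.

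The asparagine, glutamine and alanine tRNAs formed a middle group. mt-Tn had 1967 and 515 normalized counts in mitochondria against 52 and 106. mt-Tq had 2537 and 365 in mitochondria against 51 and 77. mt-Ta had 1212 and 270 against 93 and 180. As a ratio, its lower mitochondrial value was the nearest to its higher rest value among the 8 members. Between mt-Tn and mt-Ta, 2 bases apart in the cluster, the order changed with the fraction. Per base, mt-Tn was 1.58 and 1.85 times mt-Ta in mitochondria, but 0.543 and 0.572 times mt-Ta in the rest fraction.

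The serine and tyrosine tRNAs were the least abundant members in both rest libraries and in mitochondrial replicate 2, whereas mt-Ty ranked 4 of 8 in mitochondrial replicate 1. mt-Ts1, the tRNA for the UCN codons of serine, had 639 and 69 normalized counts in mitochondria and 18 and 16 in the rest fraction, where the replicates were closest. mt-Ty had 2150 and 77 normalized counts in mitochondria and 6 and 3 in the rest fraction. These correspond to about 555 and 30 reads and to about 23 and 8 reads, above the level of 3 reads in each library. mt-Ty was the only member under 10 normalized counts in both rest libraries, so that it passed the filter on low values through the mitochondrial libraries alone. The neighbouring gene mt-Tc, 2 bases away on the same strand, was 31.5 to 53.1 times higher than mt-Ty per base in mitochondrial replicate 2 and the rest libraries, and 3.50 times higher in mitochondrial replicate 1.

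**Figure D1:**
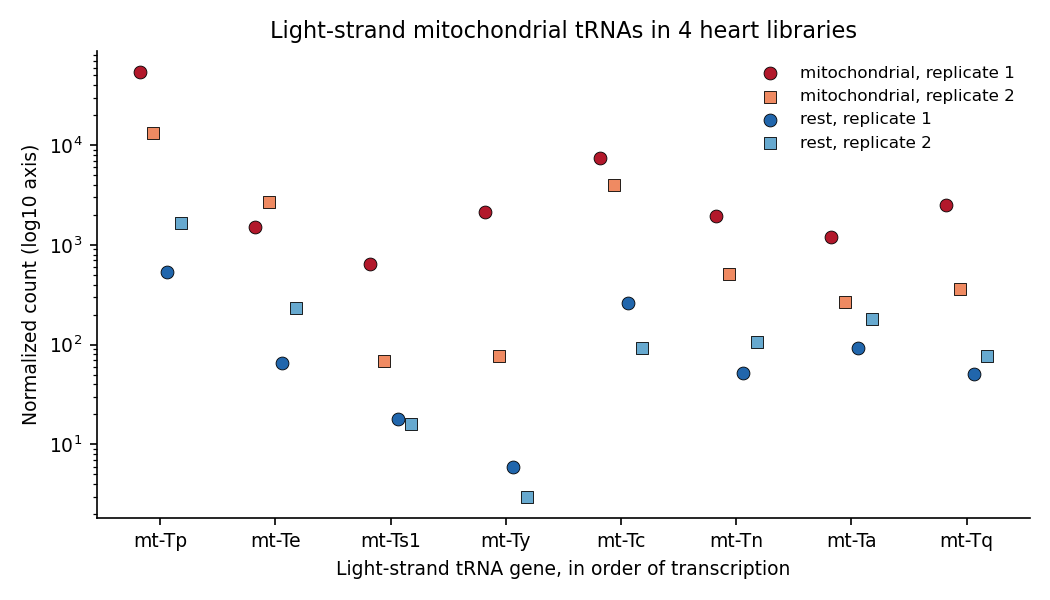
Normalized counts (log10 axis) of the 8 light-strand tRNAs in the 4 libraries, with genes in the order in which the light-strand precursor runs. Each point is a library. In each gene both mitochondrial points (red and orange) lie above both rest points (blue), and mt-Tp is highest throughout, from 531 to 54129 normalized counts.

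Ordered by mean normalized count per base in mitochondria, the levels were 502 for mt-Tp, 86.7 for mt-Tc, 30.4 for mt-Te, 20.4 for mt-Tq, 17.5 for mt-Tn, 16.6 for mt-Ty, 10.7 for mt-Ta and 5.13 for mt-Ts1. Only mt-Tp from mt-Tc and mt-Tc from mt-Te were separated from the next in this order by more than the range of the replicates. In the rest fraction the order was mt-Tp (16.4), mt-Tc (2.67), mt-Te (2.15), mt-Ta (1.98), mt-Tn (1.11), mt-Tq (0.901), mt-Ts1 (0.246) and mt-Ty (0.0672). There the ranges of mt-Tc, mt-Te, mt-Ta, mt-Tn and mt-Tq overlapped from each to the next, and mt-Tp above and mt-Ts1 and mt-Ty below stood apart. mt-Tc ranked 2 in 3 libraries and 5 in rest replicate 2.

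The level was also set beside the distance along the precursor and the room for reads. Spearman's rho between normalized count per base and distance from mt-Tp lay between -0.33 and -0.10 in the 4 libraries, across 8 genes that share each library and its depth. Across the same genes and with genes of both strands considered, rho with the number of start positions of a 75-base read was 0.63 and 0.74 in mitochondrial replicates 1 and 2 and 0.63 and 0.49 in rest replicates 1 and 2. In the same order of libraries it was 0.56, 0.89, 0.79 and 0.77 for a 50-base read and 0.44, 0.79, 0.67 and 0.60 for a 30-base read. With only genes of the same strand considered, it lay between -0.36 and -0.07 over these lengths and libraries. The 8 genes are not independent replicates, and these values describe them without a test. The read lengths after trimming, which could be as short as 30 bases, were not analysed here.

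**Figure D2:**
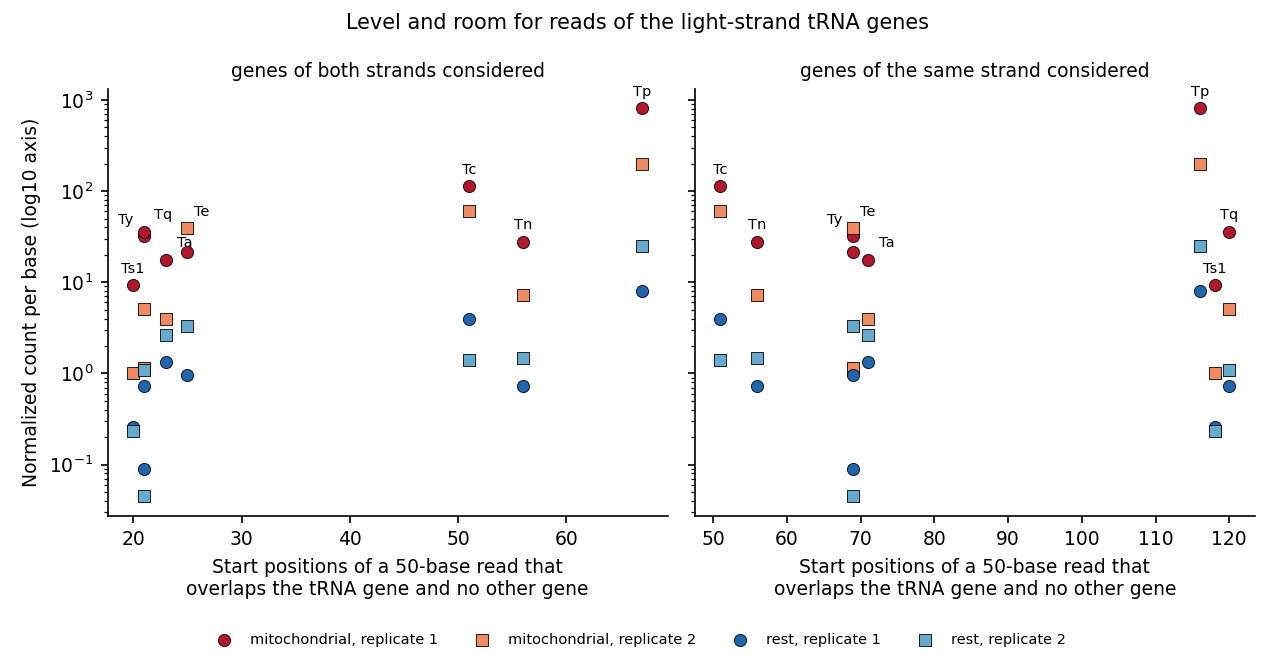
Normalized count per base (log10 axis) of the 8 light-strand tRNAs against the number of start positions from which a 50-base read overlaps the tRNA gene and no other gene, with genes of both strands (left) or of the same strand (right) considered. Each point is a gene in a library. On the left mt-Tp, with 67 positions, is highest, while mt-Tn, with 56, lies below mt-Tc, with 51, in 3 of the 4 libraries, and the 5 genes with 20 to 25 positions spread from 0.0448 to 39.1 per base. On the right, mt-Tp and mt-Ts1 have similar positions (116 and 118) and lie far apart.

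A gene entered the comparison of the fractions if 2 or more libraries gave it 10 or more normalized counts. The 12150 genes that did were fitted with limma's moderated test, on log2 of the normalized count plus 1. All log2 fold changes are mitochondrial minus rest on this scale, which understates the change of low genes. All 8 members passed the filter. Each of the 8 had both mitochondrial values above both rest values (7 of 7 without mt-Ty), as 27.7% of the tested genes did. Both were below in 0 members, against 33.4%. mt-Ty owed its place to the mitochondrial libraries, so that its inclusion favoured a difference, and counts of calls are therefore given for the other 7 too. The log2 fold changes of the members lay between 2.14 and 6.27 with a median of 3.97 (3.92 without mt-Ty), while the median over the tested genes was -0.14. At an adjusted p-value under 0.05, 1 of 8 members was higher in mitochondria, mt-Tc, against 2.16% of the tested genes, and 0 were lower, against 1.39%. At an unadjusted p-value under 0.05, 8 of 8 were higher, or 7 of 7 without mt-Ty, against 14.1%. More RNA per mitochondrion and more mitochondria in the fraction cannot be told apart in these values.

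mt-Tc rose by 5.13 on the log2 scale (standard error 0.58, adjusted p = 0.0427 from limma), from 176.5 ± 118 to 5724 ± 2395 normalized counts (SD, n = 2 each). With a library left out, a fraction held a lone library, assumed to vary like the pair of the other. No gene, mt-Tc included, kept a call in these fits, so that the loss is not particular to mt-Tc. Its log2 fold change was 4.69 and 5.57 without mitochondrial replicate 1 or 2. It was 5.86 and 4.39 without rest replicate 1 or 2. For mt-Te the log2 fold change was 4.01 ± 0.66 (standard error), with an adjusted p of 0.0522 in limma. For mt-Tp it was 4.82 ± 0.87, with an adjusted p of 0.0563 in limma. mt-Tn had 3.74 (adjusted p = 0.0603 from limma) and mt-Tq had 3.92 (adjusted p = 0.0769). In these 4 members the interval lay above 0 but the adjusted p-value missed the threshold. mt-Ty had the highest value, 6.27, together with the highest standard error, 1.6 (adjusted p = 0.0854 from limma, 95% interval 2.09 to 10.5). mt-Ts1 had 3.56 (adjusted p = 0.113 from limma), and mt-Ta had the lowest value, 2.14 (adjusted p = 0.156, 95% interval 0.079 to 4.19).

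With genes restricted to a mean above 50 normalized counts, mt-Ty and mt-Ts1 reached this mean through the mitochondrial libraries alone. Of the other 6 members, 5 were called higher, all but mt-Ta, against 14.2% of the 5556 genes tested. Their adjusted p-values from limma then lay between 0.00726 for mt-Tc and 0.0204 for mt-Tq, and mt-Ta had 0.0607. With size factors recomputed from the table, mt-Tc and mt-Te were called higher, 2 of the 7 members other than mt-Ty, against 2.46% of the tested genes. With a pseudocount of 0.1, limma called 0 members and 0 of the 12150 genes (0%), and 7 members had an unadjusted p-value under 0.05, against 13.9% of the genes. Without the mean-variance trend, limma called 0 members, against 0.198% of the genes, and 7 had an unadjusted p-value under 0.05, against 13.8%. In both fits mt-Ty was among the 7.

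**Figure D3:**
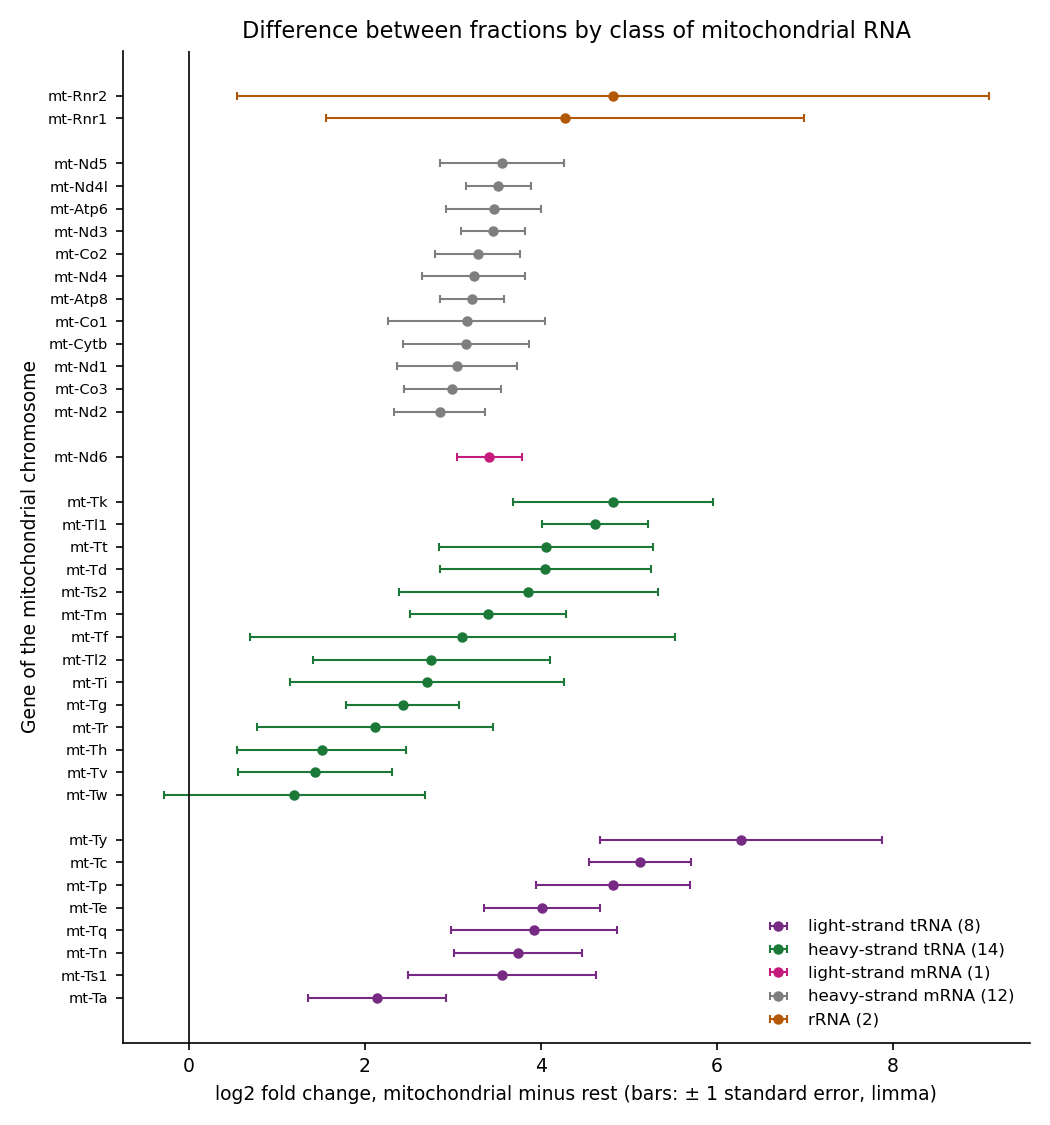
Log2 fold change between the fractions (mitochondrial minus rest, points) with 1 standard error from limma (bars) for the 37 genes of the mitochondrial chromosome, grouped by class. The 8 light-strand tRNAs span 2.14 to 6.27 and the 14 heavy-strand tRNAs 1.20 to 4.82, while the 12 heavy-strand mRNAs lie close together between 2.85 and 3.56. The 2 rRNAs lie at 4.28 and 4.82.

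The mRNA on the light strand and the genes of the heavy strand gave the background for these values. mt-Nd6 reached 228320 and 245648 normalized counts in mitochondria against 22024 and 22396 in the rest fraction. This gave 3.41 on the log2 scale, with a standard error of 0.37 and an adjusted p of 0.0427 in limma. Of the 8 members, 7 had a higher fold change than mt-Nd6 and mt-Ta a lower one. This count was 4 without mitochondrial replicate 1, where mt-Tq, mt-Tn and mt-Ts1 were below mt-Nd6 too, and 5 without rest replicate 1. The 12 heavy-strand mRNAs lay between 2.85 (mt-Nd2) and 3.56 (mt-Nd5) with a median of 3.23. The spread among the light-strand tRNAs was thus wider than among the mRNAs. The rRNAs mt-Rnr1 and mt-Rnr2 had 4.28 and 4.82, both above the members' median of 3.97. Their standard errors, 2.72 and 4.27, were large.

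The 14 heavy-strand tRNAs ranged from 1.20 for mt-Tw, the tryptophan tRNA, to 4.82 for mt-Tk, the lysine tRNA, with a median of 2.93. Both mitochondrial values exceeded both rest values in 10 of 14 of them, against 8 of 8 light-strand tRNAs, or 7 of 7 without mt-Ty. mt-Td and mt-Ts2 of the heavy strand were, like mt-Ty, under 10 normalized counts in both rest libraries. For such genes the filter fixed this order in advance. At an adjusted p-value under 0.05 in limma, 1 of 14 was higher, mt-Tl1, a leucine tRNA named here after its values were seen (log2 fold change 4.62, adjusted p = 0.0427), and 0 were lower. mt-Tw had 503 and 28 normalized counts in mitochondria and 98 and 27 in the rest fraction, so that the fractions overlapped. mt-Tk had 30465 and 3650 normalized counts in mitochondria and 214 and 649 in the rest fraction. It was the most abundant heavy-strand tRNA in both mitochondrial libraries.

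The ratio of light-strand to heavy-strand tRNA within a library does not depend on the scaling between libraries. The 2 sets differ in room for reads. With genes of both strands considered, mt-Tl1 had 1 start position of a 75-base read and the other heavy-strand tRNAs 0. Among the members, mt-Tp, mt-Tn and mt-Tc had 67, 31 and 26, and the other 5 had 0. The part of this difference in the ratio was not tested. The summed normalized counts of the 8 light-strand over those of the 14 heavy-strand tRNAs gave 1.31 and 2.82 in mitochondria against 0.570 and 0.949 in the rest fraction. The light strand thus held 56.6% and 73.8% of the tRNA counts in mitochondria (Wilson intervals of 56.1% to 57.2% and 73.0% to 74.6%). It held 36.3% and 48.7% in the rest fraction (35.4% to 37.2% and 47.8% to 49.5%). The fractions did not overlap. The difference of the log2 ratios was 1.38, with a pooled SD between replicates of 0.665. It is given without a p-value, since the exact two-sided permutation test for a single value cannot go below 0.333 with 2 libraries against 2. The difference was 1.79 without mt-Tp and mt-Tk, the tRNAs of each strand with the most normalized counts in mitochondria, and 0.556 when the medians of the per-gene log2 values were compared in place of the sums. It was 0.828 without mitochondrial replicate 2 and 1.94 without mitochondrial replicate 1. mt-Tp held 75.7% and 62.1% of the light-strand counts in mitochondria and 49.3% and 70.3% in the rest fraction. Leaving out mt-Tp alone was not tested.

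The mitochondrial replicates differed more in the tRNAs than in the mRNAs. The ratio of mitochondrial replicate 1 to replicate 2 was 27.9 for mt-Ty, 9.26 for mt-Ts1, 6.95 for mt-Tq, 4.49 for mt-Ta, 4.11 for mt-Tp, 3.82 for mt-Tn, 1.84 for mt-Tc and 0.555 for mt-Te. Over the tested genes, the median of this ratio was 1.02, and 1.70% of the genes exceeded a ratio of 4. All 14 heavy-strand tRNAs were higher in replicate 1, with ratios from 3.02 to 131 and a median of 10.4. mt-Tc and mt-Te were therefore the only tRNAs of either strand with a ratio under 3. The rRNAs mt-Rnr1 and mt-Rnr2 had ratios of 2.34 and 2.64. The mRNAs showed the opposite order, with ratios from 0.492 to 0.741 for the 12 heavy-strand mRNAs and 0.929 for mt-Nd6, and mt-Te, which abuts mt-Nd6, lay among the heavy-strand mRNAs in this measure.

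The rest replicates differed in several members as well. mt-Te and mt-Tp had ratios of rest replicate 1 to replicate 2 of 0.286 and 0.318, and mt-Tc had the opposite order with 2.80. mt-Tn, mt-Ta and mt-Tq were also lower in replicate 1 (0.491, 0.517 and 0.662), and mt-Ts1 was similar in both (1.13). The ratio of 2.0 for mt-Ty rests on 6 against 3 normalized counts.

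**Figure D4:**
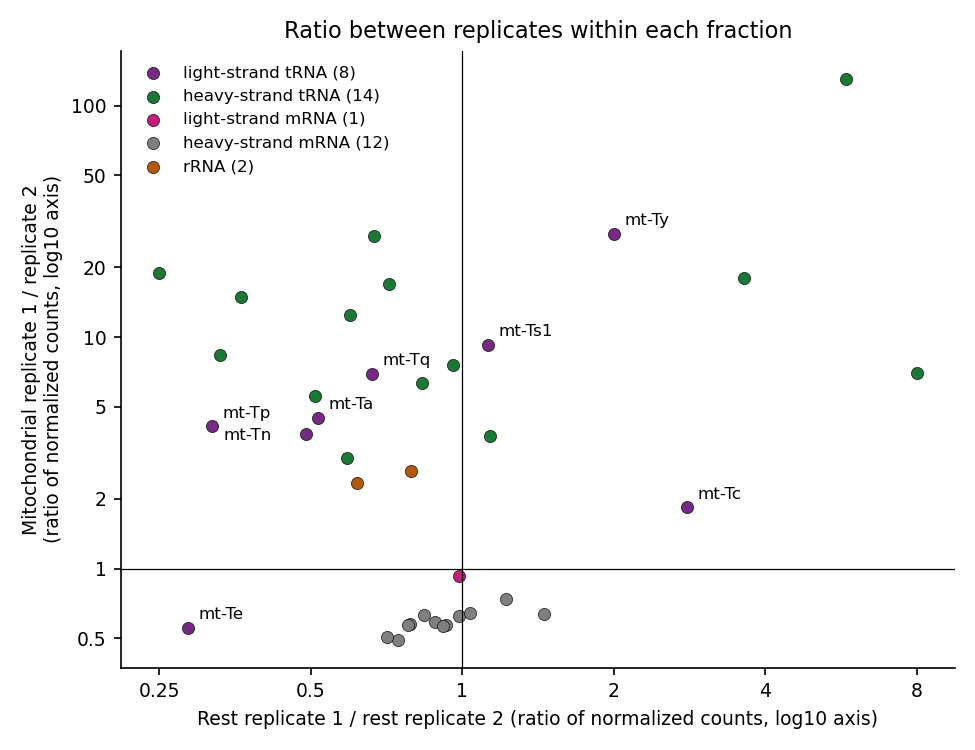
Ratio of normalized counts between replicates 1 and 2 of the mitochondrial fraction (vertical log10 axis) against the same ratio in the rest fraction (horizontal log10 axis) for the genes of the mitochondrial chromosome, by class. Lines mark a ratio of 1. The tRNAs other than mt-Te lie above 1 on the vertical axis, up to 131, and the mRNAs lie below 1, with mt-Te at 0.555 among them.

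Without mitochondrial replicate 1, the median log2 fold change of the 8 members was 3.29 and their range 1.05 to 4.69. Without mitochondrial replicate 2, the median was 5.24 and the range 3.22 to 8.67. The highest member changed from mt-Tc to mt-Ty between these choices, and mt-Ta was the lowest in both. For the heavy-strand tRNAs the medians were 1.17 and 4.89. Without mitochondrial replicate 1 the log2 fold changes of mt-Tw and mt-Tf were -0.86 and -0.38, and 12 of the 14 were above 0. The 8 members were above 0 when either library was left out.

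The counted reads of the light-strand tRNAs were a small share of those on the mitochondrial chromosome in both fractions. Reads overlapping a neighbouring gene were left out, so that this share does not give how rare the RNAs themselves were. Of the normalized counts on this chromosome, the light-strand tRNAs took 0.040% and 0.0277% in mitochondria against 0.0245% and 0.0410% in the rest fraction. The fractions thus overlapped. Without the rRNAs, the shares were 1.3% and 0.235% in mitochondria and 0.146% and 0.303% in the rest fraction, and the fractions overlapped again. Mitochondrial replicate 1 alone stood apart in this share.

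Scaled to the total of the mitochondrial chromosome, the tested genes had a median log2 fold change of -4.43, and the members lay on both sides of 0, with a median of -0.55. mt-Ty, mt-Tc and mt-Tp were above 0, with 2.0, 0.60 and 0.29, and the other 5 were below, down to -2.38 for mt-Ta. Of the 7 members other than mt-Ty, limma called 0 higher, against 0.0165% of the tested genes, and 1 lower, mt-Ta (adjusted p = 0.000601), against 99.4%. Without adjustment, 0 of the 7 were higher too. Relative to the median gene, the members' median was higher by 3.88 under this scaling and by 4.11 with the deposited size factors. Scaled to the mitochondrial chromosome without the rRNAs, 1 of these 7 members was called higher, mt-Tc (1.90, adjusted p = 0.0235 from limma), against 0.0412% of the tested genes. The value of mt-Ty was 3.27. mt-Ta was the only member below 0, with -1.08 (adjusted p = 0.209 from limma).

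mt-Ty and mt-Ta, chosen here as the members with the highest and the lowest fold change, can also be set against each other within each library. Per base, mt-Ty was 1.83 and 0.294 times mt-Ta in mitochondrial replicates 1 and 2, and 0.0664 and 0.0172 times mt-Ta in rest replicates 1 and 2. The choice of the genes fixes the direction of this difference between the fractions. Both genes belong to the same cluster, with mt-Tc and mt-Tn between them.

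**Figure D5:**
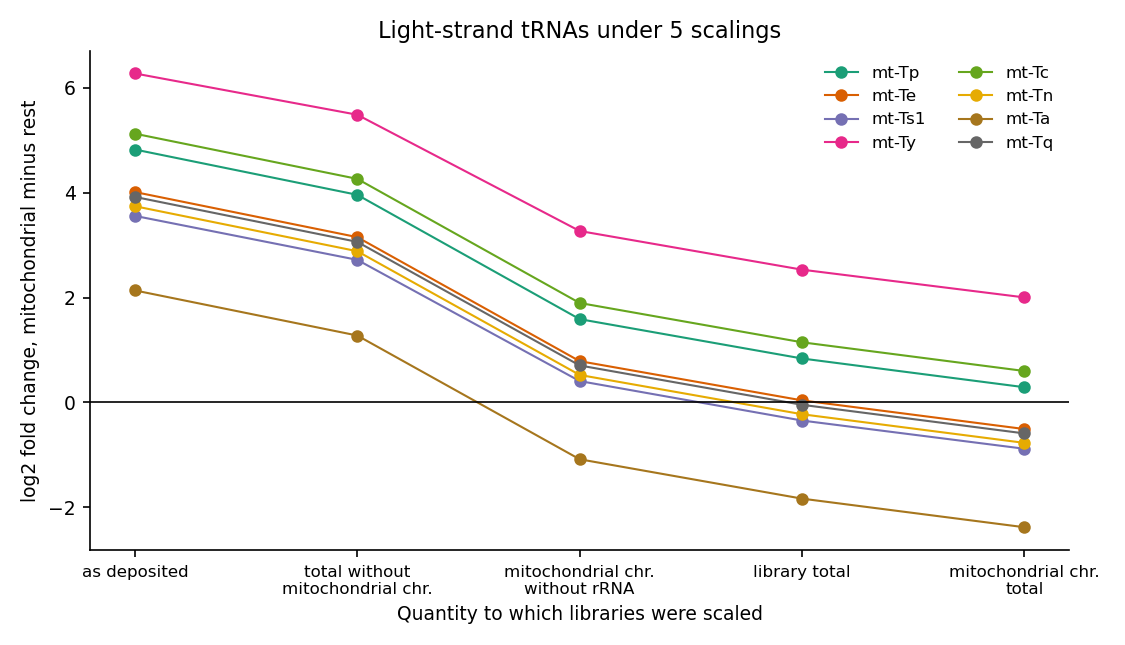
Log2 fold change (mitochondrial minus rest) of the 8 light-strand tRNAs with the libraries scaled as deposited, to the total without the mitochondrial chromosome, to the mitochondrial chromosome without rRNA, to the library total and to the mitochondrial chromosome. Lines join the values of a gene. mt-Ty, mt-Tc and mt-Tp stay above 0 in all 5 scalings, and mt-Ta is lowest in each, from 2.14 to -2.38.

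Scaled to the library total, 0 of the 7 members other than mt-Ty were called higher by limma, with or without adjustment, against 0.0165% of the tested genes. mt-Ta was lower (-1.84, adjusted p = 0.00381 from limma), against 98.9% called lower, and mt-Ty had a value of 2.53. Scaled to the total without the mitochondrial chromosome, the 8 members were above 0, and 4 of the same 7 were called higher by limma, mt-Tn, mt-Tc, mt-Te and mt-Tp, against 1.06% of the tested genes. The log2 fold change of mt-Tc was 4.26 there (adjusted p = 0.0191 from limma), that of mt-Tp was 3.96 (adjusted p = 0.0269) and that of mt-Ta was 1.28 (adjusted p = 0.242).

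The nuclear genes that make, process and charge these tRNAs were measured as cytosolic mRNAs in the same libraries. Of the 10 enzymes that charge the 8 tRNAs, 9 were tested, and limma called 0 in either direction after adjustment (0 higher and 1 lower with an unadjusted p under 0.05). Their log2 fold changes ran from -3.0 for Nars2, the asparaginyl-tRNA synthetase, which had 0 and 10 normalized counts in mitochondria and 24 and 27 in the rest fraction, to 0.70 for Gatc, a subunit of the amidotransferase that completes glutaminyl-tRNA. Of 14 tested genes for tRNA processing and modification, 0 were called (1 higher and 0 lower without adjustment), from -0.86 for Trmu, the 2-thiouridylase, to 1.36 for Hsd17b10, a subunit of the mitochondrial RNase P (adjusted p = 0.0511 from limma). Of 9 tested genes for transcription and decay of the mitochondrial genome, 0 were called (3 higher and 1 lower without adjustment), from -0.96 for Polrmt, the mitochondrial RNA polymerase, to 0.85 for Tfam, which binds the promoters. Over all tested genes, limma called 2.16% higher and 1.39% lower after adjustment, so that few such calls are to be had from lists this short. Without adjustment, 14.1% were higher and 16.2% lower. The medians of the 3 lists were 0.04, 0.09 and 0.29, against -0.14 over the tested genes and 3.97 for the 8 light-strand tRNAs. The place of 0 rests on the deposited size factors. Scaled to the library total, the median over the tested genes was -3.93 and that of the members -0.0035.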

How the data were processed

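The deposited signal was made by the authors from single-end reads of 75 bases. Per the labels and the methods, reads were trimmed with Trimmomatic, aligned to mm10 (GRCm38) with STAR and counted per gene with featureCounts, and normalized with DESeq2. The processing notes and the methods give different versions of the last 3 tools. A read that overlapped more than 1 gene, or that had more than 1 alignment, was not counted. Linear models were fitted with limma 3.58.1 (R 4.3.3) with a mean-variance trend to log2 of the normalized count plus 1 of 12150 genes. Benjamini-Hochberg adjustment was made over these genes. The fit was also run on simulated data with the same dispersion for all genes. Such data do not cover genes with replicates as unlike as those of the tRNAs. The model had no term for replicate. The members and gene lists were chosen with earlier results of these data known. All 8 members were described, and beside them mt-Nd6, the rRNAs, neighbouring genes, and the highest and lowest of each class or list. Sequences came from GENCODE M21 and were searched with blastn 2.17.0. The alternatives were other scalings, filters, pseudocounts, no variance trend, the replicate block and each library left out. Depth was about 23492045 to 47340914 reads on genes per library.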

Additional observations from a re-analysis of the deposited data

How the results depend on the processing

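With recomputed size factors, 2 members were called higher by limma, against 2.46% of the tested genes (299 higher and 203 lower). With the library total, genes called over all tested were 2 higher and 12022 lower, with 1 member higher and 1 lower, and the fold changes of mt-Tq (-0.046), mt-Ta (-1.84), mt-Tn (-0.23) and mt-Ts1 (-0.35) were below 0. With the total without the mitochondrial chromosome there were 129 genes higher, 3819 lower and 5 members higher. With the mitochondrial chromosome total there were 2 genes higher, 12076 lower, 1 member higher and 1 member lower, and mt-Tq (-0.59), mt-Ta (-2.38), mt-Tn (-0.77), mt-Ts1 (-0.88) and mt-Te (-0.51) were below 0. Without its rRNAs there were 5 higher, 11862 lower and 2 members higher, and mt-Ta had -1.08. The main comparison gave 262 higher and 169 lower. Without the filter, 279 genes were higher and 630 lower. With a mean above 50, 790 were higher and 670 lower, with 7 members higher. A pseudocount of 0.1 gave 0 higher and 0 lower in limma (1694 and 1754 at an unadjusted p-value under 0.05) with 0 members, and a pseudocount of 10 gave 536 and 580 with 4 members. Without the trend, 24 genes were higher and 143 lower, with 0 members. These counts of members include mt-Ty, which passed the filter through the mitochondrial libraries alone. With a mean above 50 this held for mt-Ts1 too, and 5 of the other 6 members were called higher. Leaving out single libraries, the calls ranged from 0 to 0 for genes higher, genes lower and members higher, against 590 to 2333 higher and 468 to 3324 lower without adjustment. The log2 ratio of light to heavy tRNAs, 1.38, ranged from 0.828 to 1.94 with a library left out and was 0.556 with medians per gene. The cause of these changes was not tested.

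With the replicate block, 470 of the 12150 tested genes were higher and 309 lower, and 7 of 8 members, all but mt-Ta, were higher. Without mt-Ty, which passed the filter through the mitochondrial libraries alone, 6 of 7 were higher. The deviations of replicates 1 and 2 correlated between the fractions with Pearson's r = 0.130 across genes, which are not independent replicates, and the labels state no pairing, so that the libraries share only a number. In this balanced layout the block cannot change the difference of the log2 light to heavy ratios, which is 1.38 with the replicate block by construction.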
